A study of Mus musculus with 4 samples.

Results

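The 39 genes described here encode proteins that build or process the extracellular matrix other than the collagens themselves. They were taken by gene symbol from a list of proteoglycans, microfibril, crosslinking and matricellular genes, chosen with earlier results of these data known. All 39 were found among the 34745 Ensembl gene IDs of the count table. Counts came from 4 RNA-seq libraries of primary macrophages grown from the bone marrow of C57BL/6 mice (bone marrow-derived macrophages, BMDMs). In one group, 2 libraries were from cells transfected with Acly-E14 siRNA and given lipopolysaccharide (LPS), the bacterial cell wall component that activates macrophages. In the other group, 2 libraries were from cells transfected with a control siRNA and also given LPS, so all 4 libraries are of LPS-treated, transfected cells. Small interfering RNA (siRNA) lowers the messenger RNA it matches, and Acly encodes ATP citrate lyase. The labels name 1 siRNA against Acly, do not spell out E14, and state no age of the mice and no dose or duration of LPS.

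Small leucine-rich proteoglycans such as biglycan and decorin bind collagen fibrils and set their spacing, while fibrillins, fibulins and elastin form the microfibrils and elastic fibres that let tissue stretch. Lysyl oxidases crosslink collagen and elastin outside the cell, after hydroxylases and chaperones in the endoplasmic reticulum have modified the collagen chains. Latent TGF-beta binding proteins hold inactive TGF-beta in the matrix, and matricellular proteins such as thrombospondin 1 and SPARC signal to cells rather than bear load. Fibroblasts are the main source of many of these proteins, and activated macrophages make some of them, among them fibronectin, thrombospondin 1 and versican.

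The library totals lay between 21023197 and 21837806 counts. Acly had 118 and 127 CPM (counts scaled to a common depth with trimmed-mean factors, TMM) after Acly-E14 siRNA, against 158 and 154 CPM in the controls (log2 fold change -0.35, edgeR adjusted p = 0.0086), counted over the whole gene. All 15 macrophage markers of a list chosen with earlier results of these data known were counted in every library. They summed to 9982 and 10436 CPM after Acly-E14 siRNA, against 10771 and 10015 CPM in the controls. Lyz2 was the largest part of these sums, at 4399 and 4804 CPM after Acly-E14 siRNA, against 4932 and 4550 CPM in the controls. Of the 15 markers 4 were called higher and 7 lower, and the median log2 fold change over all 15 was -0.19. Cd14 had a log2 fold change of 1.03, and Mrc1, Cebpa and Cd68 had -0.63, -1.18 and -0.68.

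Most of the matrix genes were higher after Acly-E14 siRNA. Because they were chosen with earlier results of these data known, their excess over all genes tested is descriptive and not an independent test. Of the 38 genes with enough counts to be tested, 30 were higher at an edgeR adjusted p under 0.05, 0 were lower and 8 were not called, where 17.3% of all 13108 genes tested were higher and 15.9% lower. At an unadjusted p under 0.05 in the same fit 34 were higher and 0 lower, where 23.2% of all genes tested were higher and 22.0% lower at that threshold, and DESeq2 and limma also called 0 lower. The median log2 fold change was 1.31 for the 38 genes, against 0.00 for all genes tested. Both Acly-E14 siRNA libraries lay above both controls for 36 of the 38, and below both for the other two, where 35.3% of all genes tested lay above and 35.3% below. Among the called genes 23 rose by more than 1 on the log2 scale, a size and call reached by 7.49% of all genes tested, and 11 rose by more than 2. The count of higher genes was 22 without Acly-E14 siRNA library 2 and 22 without control library 1.

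**Figure D1:**
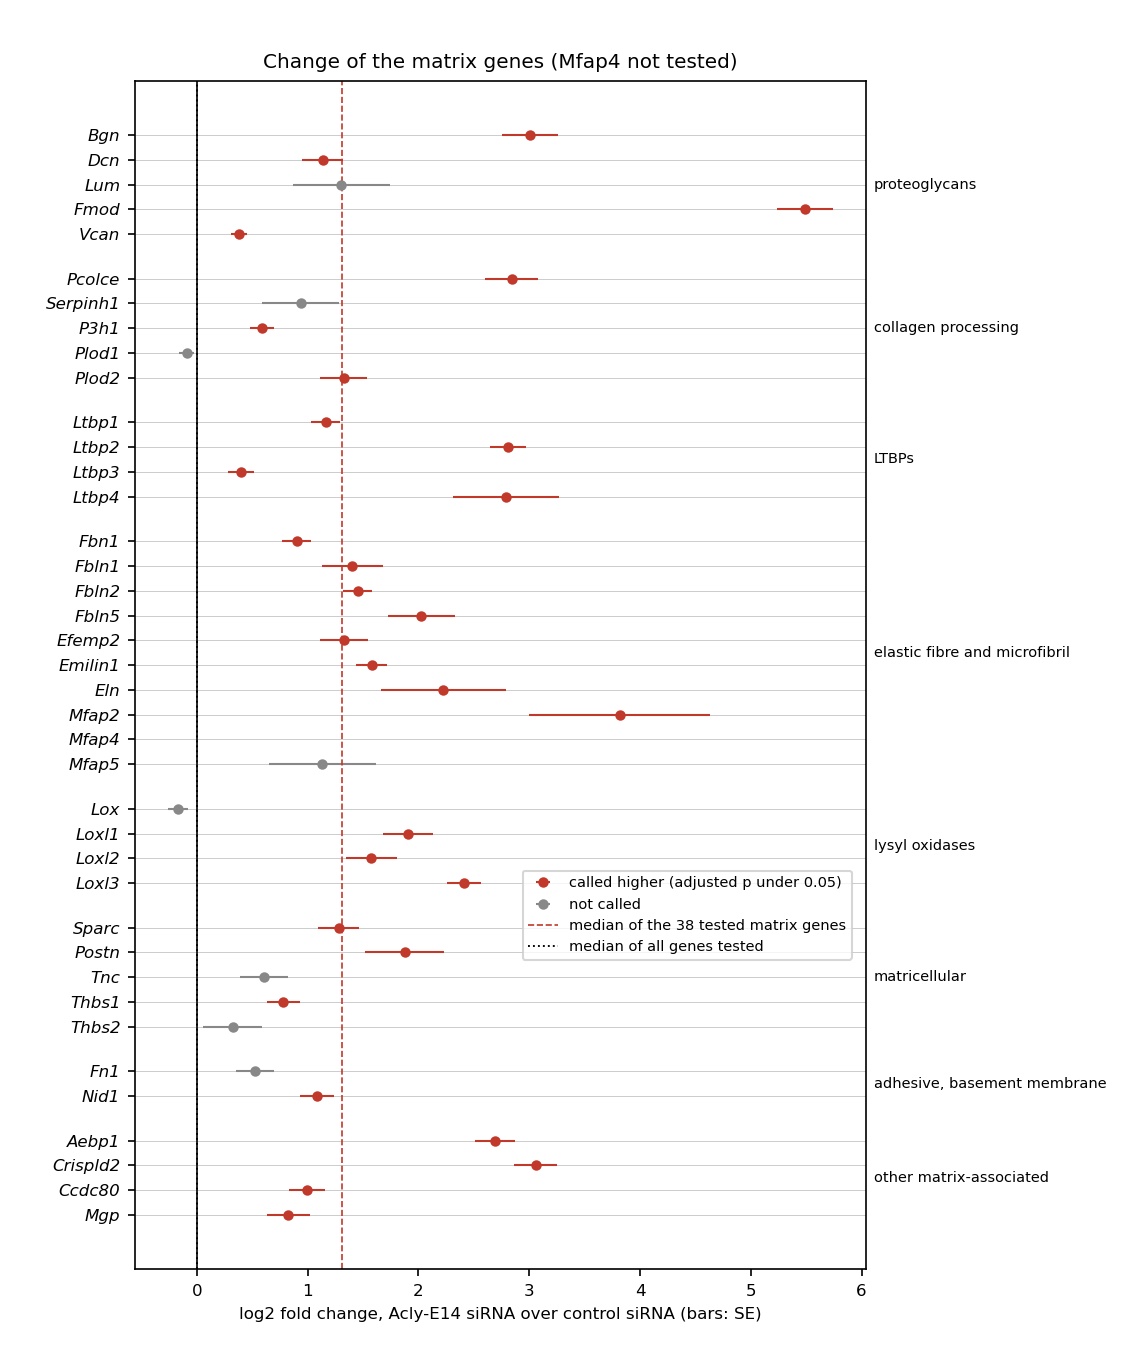
Log2 fold change of each matrix gene (Acly-E14 siRNA over control siRNA) with its standard error, grouped by role from top to bottom. Red points are the 30 genes called higher and grey points the 8 not called. The dashed line is the median of the 38 tested matrix genes, 1.31, and the dotted line that of all genes tested. Fmod lies farthest to the right, and Lox and Plod1 are the only points left of 0.

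As a group these transcripts took up a larger share of the RNA. Counts of the 39 genes made up 0.755% and 0.939% of the Acly-E14 siRNA libraries, against 0.376% and 0.509% of the control libraries. Fn1 and Thbs1, which encode fibronectin and thrombospondin 1, held 54.7% of the group's summed CPM after Acly-E14 siRNA and 63.3% in controls. Without those genes the sum was 3345 and 4096 CPM after Acly-E14 siRNA, against 1469 and 1881 CPM in controls, a ratio of group means of 2.22, while with them the ratio was 1.80. Fn1 and Thbs1 together thus had the smaller relative increase.

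The stretch of DNA before the start site is shown for genes with large rises (Fmod, Bgn and Aebp1) and, for contrast, for Plod1, which was not called. The 150 bases before each RefSeq start are given 5′ to 3′ on the gene's own strand (GRCm38.p6, the assembly behind mm10), at chr1:134037104-134037253 (plus strand), chrX:73483451-73483600 (plus strand), chr11:5861716-5861865 (plus strand) and chr4:147936777-147936926 (minus strand). Capitals mark the GC box letters GGGCGG on either strand.
Fmod: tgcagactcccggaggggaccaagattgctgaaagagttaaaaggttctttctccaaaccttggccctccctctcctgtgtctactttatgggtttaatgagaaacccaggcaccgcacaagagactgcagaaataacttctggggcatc
Bgn: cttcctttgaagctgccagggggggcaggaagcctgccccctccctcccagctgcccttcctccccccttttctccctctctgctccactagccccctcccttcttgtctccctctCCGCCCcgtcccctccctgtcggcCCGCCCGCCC
Aebp1: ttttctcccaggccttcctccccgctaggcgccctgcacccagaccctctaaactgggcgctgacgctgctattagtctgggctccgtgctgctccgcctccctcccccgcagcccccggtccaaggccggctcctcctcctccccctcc
Plod1: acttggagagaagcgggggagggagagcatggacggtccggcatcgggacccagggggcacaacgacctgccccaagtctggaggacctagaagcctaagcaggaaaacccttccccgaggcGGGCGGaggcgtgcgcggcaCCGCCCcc

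Bgn held 3 matches, of which the pair next to the start overlap, Plod1 held 2, and neither Fmod nor Aebp1 held one in the bases shown. RefSeq start windows of 300 bases were at hand for 25 of the 39 genes, 36 windows in all. The Aebp1 window held a GC box outside the bases shown, and the Fmod window held none. The GC box was in 63.9% of these windows and in 46.2% of 21262 windows of protein-coding genes, while their median GC content was 60.3% and 56.3%. TATAAA was in 13.9% and 12.6%, the AP-1 motif TGANTCA in 2.78% and 6.99%, and the TEAD motif GGAATG in 8.33% and 13.6%. The CArG box, bound by serum response factor, was in 0 of the 36 windows and in 1.52% of the protein-coding ones. Every motif was searched on both strands, and windows of 1 gene can overlap.

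The proteoglycan genes gave both the largest and one of the smallest rises. Bgn, the biglycan gene (chromosome X, 73483602 to 73495933 in mm10), was at 283 and 307 CPM after Acly-E14 siRNA, against 26.6 and 46.8 CPM in controls. This was 8.03-fold higher (log2 3.01, SE 0.25, edgeR adjusted p = 0.0014), with no overlap between the groups although the controls themselves differed 1.76-fold. Fmod, which encodes fibromodulin, a collagen-binding relative of biglycan, had 194 and 196 counts after Acly-E14 siRNA, against 4 and 4 counts in controls. The fitted fold was 44.9 (log2 5.49, SE 0.25). The ratio of counts scaled by library totals was 49.3, and its exact 95% interval, for counting error alone, ran between 24.8 and 115. Fmod was thus nearly unseen in controls and reached 8.88 and 8.95 CPM after Acly-E14 siRNA (edgeR adjusted p = 0.00058).

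Dcn, the decorin gene, was at 249 and 301 CPM after Acly-E14 siRNA, against 103 and 148 CPM in controls (2.20-fold, log2 1.13, SE 0.18, edgeR adjusted p = 0.0073). Lum, the lumican gene, starts 47.0 kb beyond the end of Dcn on chromosome 10, and both belong to the class of small leucine-rich proteoglycans. It was at 2.01 and 4.29 CPM after Acly-E14 siRNA, against 1.04 and 1.50 CPM in controls, and was not called (log2 1.30, SE 0.44, edgeR adjusted p = 0.068). Its fold was 1.58 without Acly-E14 siRNA library 2, and it was called without Acly-E14 siRNA library 1 (edgeR adjusted p = 0.029) and with DESeq2 (0.026), over a range of 0.021 to 0.36 in all alternatives. Vcan encodes versican, the large hyaluronan-binding proteoglycan. It was at 363 and 403 CPM after Acly-E14 siRNA, against 281 and 306 CPM in controls, where it was already abundant. The rise of 1.30-fold (edgeR adjusted p = 0.013) was not called without Acly-E14 siRNA library 2 (0.057) or without control library 1 (0.088).

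Genes that process collagen did not move as 1 block, with 3 of 5 called higher. Pcolce encodes an enhancer of the proteinase that trims the procollagen C-terminus. It was at 23.6 and 34.4 CPM after Acly-E14 siRNA, against 3.43 and 4.63 CPM in controls, 7.17-fold higher (log2 2.84, SE 0.24, edgeR adjusted p = 0.0014). Plod2, the lysyl hydroxylase of collagen telopeptides, was at 30.3 and 41.2 CPM, against 11.9 and 16.7 CPM in controls (2.50-fold, edgeR adjusted p = 0.0071). Its relative Plod1, which acts on the helical part of collagen, was at 52.1 and 48.6 CPM after Acly-E14 siRNA, against 53.7 and 53.5 CPM in controls. Its log2 fold change was -0.09 (SE 0.069, edgeR adjusted p = 0.35), so any change was small beside that of Plod2. A test of the difference between Plod1 and Plod2 was not made.

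P3h1, a collagen prolyl 3-hydroxylase, was at 26.0 and 29.9 CPM after Acly-E14 siRNA, against 17.7 and 19.5 CPM in controls (1.50-fold, edgeR adjusted p = 0.012). That call was lost without Acly-E14 siRNA library 2 (adjusted p = 0.056) or control library 1 (0.071). Serpinh1, which encodes the collagen chaperone HSP47, was at 160 and 317 CPM after Acly-E14 siRNA, against 97.2 and 151 CPM in controls. The Acly-E14 siRNA libraries thus differed 1.99-fold from each other, library 1 lay just above control library 2, and the gene was not called (log2 0.94, SE 0.35, edgeR adjusted p = 0.088). Without Acly-E14 siRNA library 1 it was called (adjusted p = 0.017), and over all alternatives the adjusted p lay between 0.0022 and 0.36.

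All 4 latent TGF-beta binding protein genes were called higher, by unequal amounts. Ltbp2, whose product binds fibrillin microfibrils and, unlike its relatives, does not bind latent TGF-beta, was at 174 and 227 CPM after Acly-E14 siRNA, against 25.5 and 31.5 CPM in controls. It was 7.01-fold higher (log2 2.81, SE 0.16, edgeR adjusted p = 0.00077). Ltbp1 was at 35.1 and 39.5 CPM, against 14.9 and 18.4 CPM in controls (2.24-fold, edgeR adjusted p = 0.0026). Ltbp4 was rare, with 53 and 43 counts after Acly-E14 siRNA, against 3 and 10 counts in controls (edgeR adjusted p = 0.0088). Its fitted fold of 6.92 was 14.2 without control library 2 and 4.63 without control library 1.

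Ltbp3 was at 46.7 and 57.9 CPM after Acly-E14 siRNA, against 38.0 and 41.5 CPM in controls. The 1.32-fold rise was close to the threshold (edgeR adjusted p = 0.048), and the call was lost without Acly-E14 siRNA library 2 (0.20), without control library 1 (0.20) or 2 (0.093), and without a filter on low counts (0.10). Of the ligands these proteins hold, Tgfb1 was at 404 and 374 CPM after Acly-E14 siRNA, against 305 and 285 CPM in controls, and was 1.32-fold higher (edgeR adjusted p = 0.0077). Tgfb2 and Tgfb3 had log2 fold changes of -0.08 and 0.26 and were not called (edgeR adjusted p = 0.70 and 0.27).

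Of 9 tested elastic fibre and microfibril genes, 8 were called higher, and all 9 had a log2 fold change above 0. The fibulins, which link elastin and microfibrils to cells and to other matrix proteins, were all higher. Fbln2 was the most abundant of them in CPM, at 188 and 247 CPM after Acly-E14 siRNA, against 78.8 and 79.9 CPM in controls (2.74-fold, log2 1.45, SE 0.13, edgeR adjusted p = 0.0017). Fbln5 was at 8.01 and 11.7 CPM, against 3.03 and 1.82 CPM in controls (4.07-fold, edgeR adjusted p = 0.0058). Efemp2, also called fibulin 4, was at 16.0 and 23.9 CPM, against 7.25 and 8.61 CPM (2.51-fold, edgeR adjusted p = 0.0078), and its call was lost without control library 1 (0.057). Fbln1 was at 9.06 and 10.1 CPM, against 2.53 and 4.68 CPM (2.64-fold, edgeR adjusted p = 0.014), and its call was lost without Acly-E14 siRNA library 2 (0.063).

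Fbn1, the fibrillin 1 gene, is the backbone of the microfibril. It was at 97.6 and 121 CPM after Acly-E14 siRNA, against 53.1 and 64.1 CPM in controls (1.87-fold, log2 0.90, SE 0.13, edgeR adjusted p = 0.0058). Emilin1, an elastin-associated glycoprotein gene, was at 17.6 and 14.9 CPM, against 5.17 and 5.71 CPM in controls (2.99-fold, edgeR adjusted p = 0.0017). Both therefore rose with separated groups, Emilin1 with the larger fold and Fbn1 at the higher CPM.

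Eln, the elastin gene itself, was low, with 79 and 108 counts after Acly-E14 siRNA, against 6 and 32 counts in controls. It was called higher (log2 2.23, SE 0.57, edgeR adjusted p = 0.030). The fold was 14.1 without control library 2 and 2.84 without control library 1, and the call was lost without Acly-E14 siRNA library 1 (0.059) or 2 (0.12), with DESeq2 (0.067) and without a filter on low counts (0.068). Mfap2, a microfibril protein gene, had 13 and 20 counts after Acly-E14 siRNA, against 0 and 2 counts in controls. Scaled by library totals, the ratio was 16.7 (exact 95% interval 4.26 to 143, for counting error alone). The fitted fold with all libraries was 14.1 (log2 3.82, SE 0.82). It was 129 without control library 2, which leaves only the control library with no count, and 7.63 without control library 1. The Mfap2 call (edgeR adjusted p = 0.018) was lost without Acly-E14 siRNA library 2 (0.100) or control library 1 (0.072). Mfap5 had 12 and 16 counts, against 4 and 8 counts, and was not called (edgeR adjusted p = 0.12), and Mfap4, with 4 and 1 counts against 1 and 3, was too low to test.

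Among the lysyl oxidases the founding gene and its relatives parted. Lox was at 129 and 151 CPM after Acly-E14 siRNA, against 152 and 163 CPM in controls, and was not called (log2 -0.17, SE 0.090, edgeR adjusted p = 0.20). Loxl3 was at 13.9 and 15.7 CPM, against 2.58 and 2.95 CPM in controls, 5.33-fold higher (log2 2.42, SE 0.15, edgeR adjusted p = 0.00084). Loxl1, needed for elastic fibre upkeep in mice, was at 22.2 and 26.6 CPM, against 4.97 and 8.04 CPM in controls (3.74-fold, edgeR adjusted p = 0.0031). Loxl2 was at 23.1 and 32.3 CPM, against 7.55 and 11.0 CPM in controls (2.98-fold, edgeR adjusted p = 0.0056). Lox had more CPM than its relatives in all 4 libraries, and the summed CPM of the 4 genes was only 1.18-fold higher after Acly-E14 siRNA. The difference in response between Lox and the others was not itself tested.

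The matricellular genes held the most abundant transcript of the list on a per-length scale. Thbs1, the thrombospondin 1 gene, was at 1843 and 2260 CPM after Acly-E14 siRNA, against 1037 and 1351 CPM in controls (1.72-fold, log2 0.78, SE 0.15, edgeR adjusted p = 0.013). The Thbs1 call was lost without control library 1 (0.058). Sparc, which encodes a collagen-binding glycoprotein also called osteonectin, was at 635 and 763 CPM, against 233 and 342 CPM in controls (2.43-fold, log2 1.28, SE 0.19, edgeR adjusted p = 0.0054). Postn, the periostin gene, was at 2.88 and 4.93 CPM, against 1.14 and 0.982 CPM (3.67-fold, edgeR adjusted p = 0.012), and was not called without Acly-E14 siRNA library 2 (0.063) or without control library 1 (0.059) or 2 (0.057).

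Tnc, the tenascin C gene, was at 106 and 131 CPM after Acly-E14 siRNA, against 60.4 and 95.0 CPM in controls. It was not called (log2 0.61, SE 0.22, edgeR adjusted p = 0.078), but was without control library 2 (0.017), and over all alternatives the adjusted p lay between 0.0066 and 0.27. Thbs2 was at 2.10 and 2.47 CPM, against 1.59 and 2.06 CPM in controls (edgeR adjusted p = 0.39). For both genes the libraries of the groups did not overlap, but the gap was small beside the spread within the groups.

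Of the adhesive and basement membrane genes, Nid1 rose and Fn1 was not called. Nid1 encodes nidogen, which joins laminin to collagen IV. It was at 261 and 301 CPM after Acly-E14 siRNA, against 111 and 153 CPM in controls (2.12-fold, log2 1.09, SE 0.15, edgeR adjusted p = 0.0051). Fn1 was at 2181 and 2686 CPM after Acly-E14 siRNA, against 1418 and 1962 CPM in controls (log2 0.53, SE 0.17, edgeR adjusted p = 0.061). It was called without control library 2 (0.026) and with library totals in place of trimmed-mean factors (0.049), within a range of 0.0017 to 0.23 over all alternatives.

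The remaining 4 matrix-associated genes were all higher. Aebp1, whose secreted product binds collagen and has a carboxypeptidase-like domain, was at 282 and 329 CPM after Acly-E14 siRNA, against 38.5 and 55.9 CPM in controls (6.46-fold, log2 2.69, SE 0.18, edgeR adjusted p = 0.00087). Crispld2, a secreted glycoprotein gene, was at 10.8 and 11.7 CPM, against 1.14 and 1.54 CPM in controls (8.33-fold, edgeR adjusted p = 0.00084). Ccdc80 was at 47.2 and 53.0 CPM, against 21.1 and 29.2 CPM in controls (1.99-fold, edgeR adjusted p = 0.0075). Mgp, the matrix Gla protein gene, whose product restrains calcification, was at 13.6 and 19.3 CPM, against 8.64 and 9.87 CPM in controls (1.77-fold, edgeR adjusted p = 0.023). The Mgp call was lost without Acly-E14 siRNA library 2 (0.084), without control library 1 (0.12) or 2 (0.062) and without a filter on low counts (0.053).

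**Figure D2:**
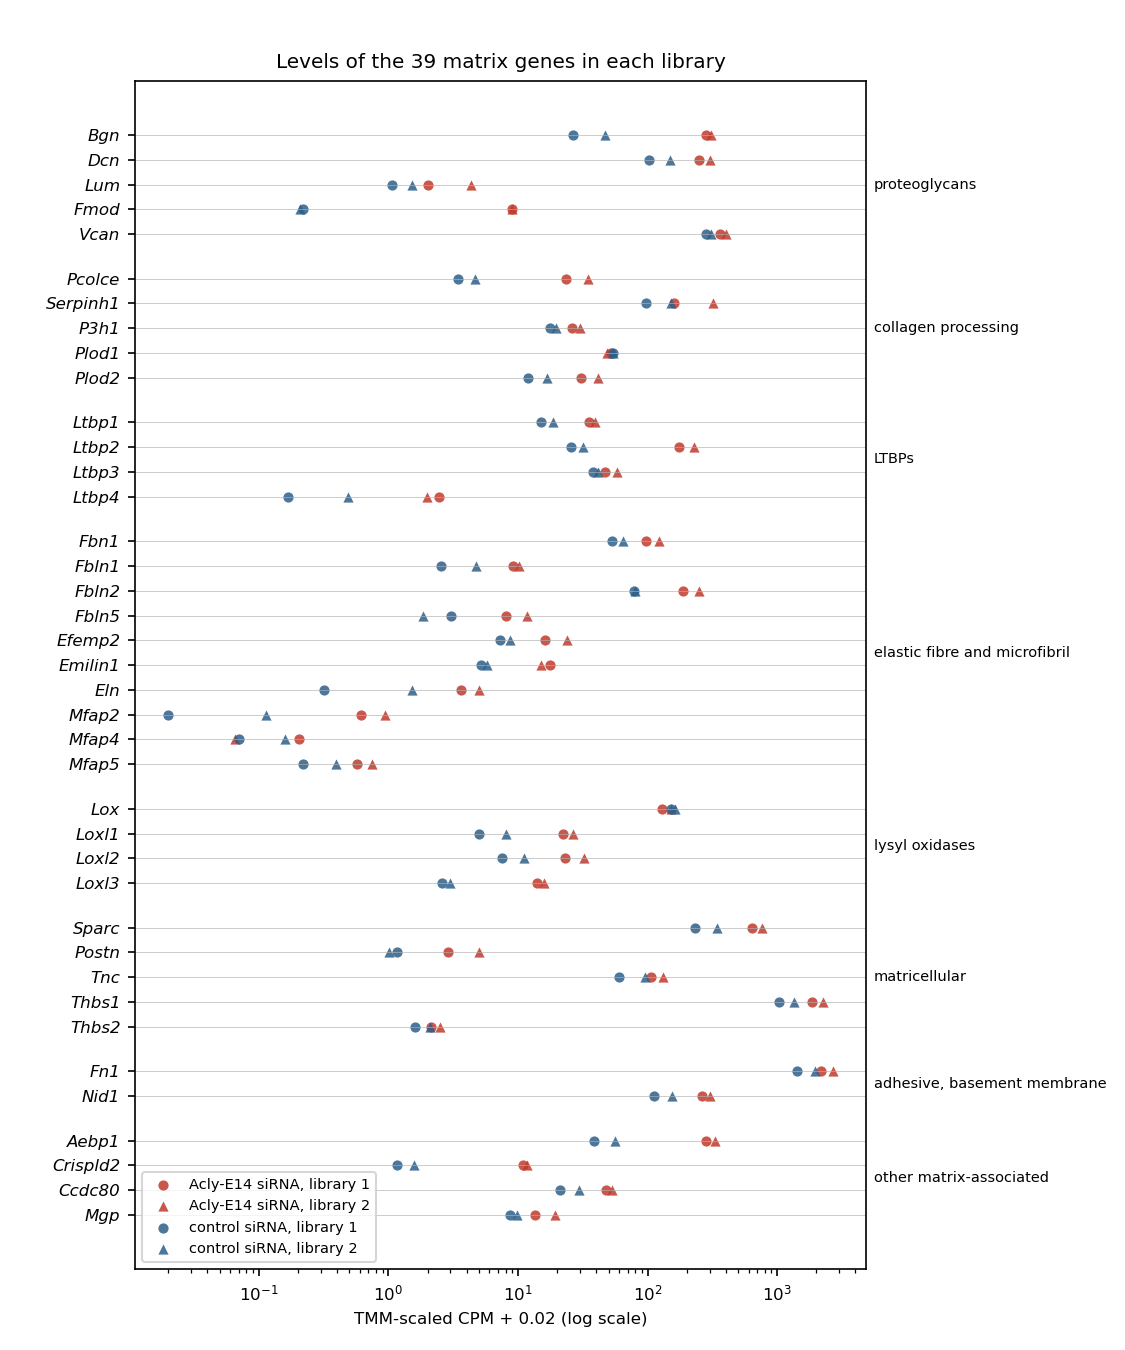
Level of each of the 39 matrix genes in each library, in CPM with 0.02 added and on a log scale, grouped by role. Red marks are the Acly-E14 siRNA libraries and blue marks the controls, with circles for library 1 and triangles for library 2. The red marks lie right of the blue ones for 36 genes, Lox and Plod1 have them slightly to the left, and for Mfap4 the groups overlap.

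Levels of different genes can be set side by side only per length, so FPKM (reads scaled to depth and gene length) were computed with the gene lengths that the deposited FPKM values imply. By mean FPKM, Thbs1 came first in both groups, at 325 after Acly-E14 siRNA and 178 in controls. Sparc had 163 and Fn1 139 FPKM after Acly-E14 siRNA, against 63.1 and 90.7 FPKM in controls, so the order of Sparc and Fn1 differed between the groups. Aebp1 reached 70.8 FPKM, sixth of the 39 genes, after Acly-E14 siRNA, against 10.3 FPKM and ninth place in controls. Bgn was eighth with 31.5 FPKM after Acly-E14 siRNA and seventeenth with 3.69 FPKM in controls. With merged GENCODE M21 exons as the length, Thbs1 stayed first and Fn1 came second in both groups. Some other places moved further. After Acly-E14 siRNA, Dcn went from place 4 with 136 FPKM to place 7 with 48.6 FPKM, and Ltbp3 from place 15 to 22. The FPKM levels and places given here therefore depend on the length used, and not only between close genes.

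The 2 libraries of a group also differed in these genes, and mostly in 1 direction. Library 2 exceeded library 1 in 35 of 38 matrix genes within the Acly-E14 siRNA group and in 33 of 37 within the control group, where Mfap2 had no count in library 1. The median ratio of library 2 over library 1 was 1.22 in the Acly-E14 siRNA group and 1.35 in the control group. Over all genes tested the median ratios were 1.0 and 1.0, and library 2 was the higher one for 49.9% and 50.6% of genes. Serpinh1 and Lum had the largest ratios within the Acly-E14 siRNA group, at 1.99 and 2.13, and Eln and Ltbp4 within the control group, at 5.02 and 3.14, from low counts. The labels give no batch or culture for the library numbers.

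**Figure D3:**
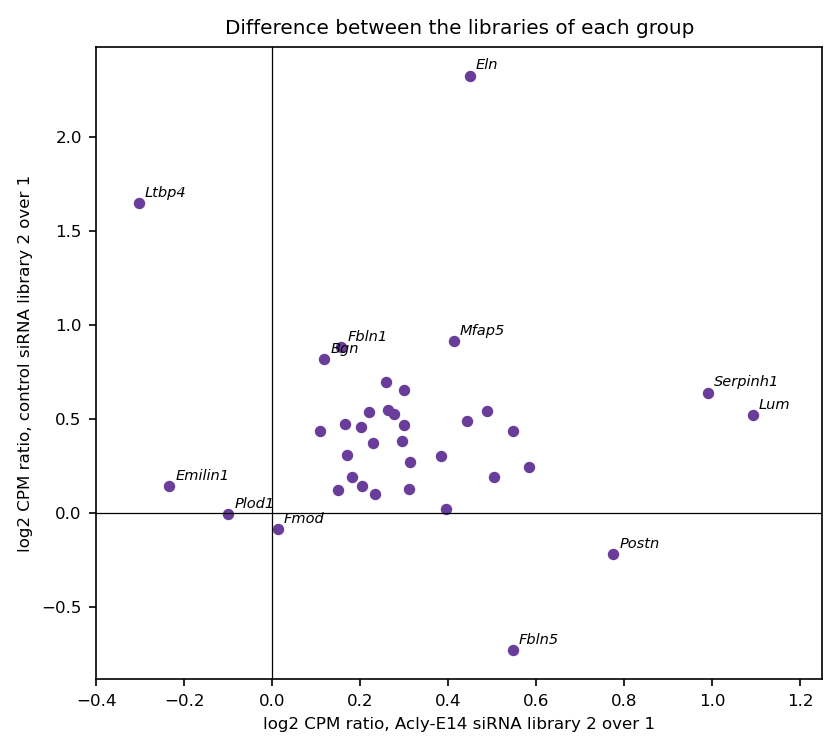
Log2 ratio of library 2 over library 1 within the Acly-E14 siRNA group (horizontal) and within the control group (vertical) for 37 tested matrix genes. Each point is 1 gene, and Mfap2, with 0 counts in control library 1, is left out. Most points lie in the upper right corner, where library 2 is higher in both groups.

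The same libraries had more of the fibroblast and stroma marker transcripts. The list of 18 such markers holds none of the 39 genes and was chosen with earlier results of these data known. Of the 18 markers, 16 were called higher, where 17.3% of all genes tested were. None had a log2 fold change below 0, and the median log2 fold change was 1.50. Fap and Cnn1 were not called (log2 0.19 and 0.12, edgeR adjusted p = 0.71 and 0.83). The 18 markers summed to 4022 and 4716 CPM after Acly-E14 siRNA, against 1836 and 2254 CPM in controls, and none was at 0 in any library. Among the 18, Pdpn had the most CPM in each library, at 1266 and 1291 CPM, against 1069 and 1076 CPM in controls. It was only 1.19-fold higher (edgeR adjusted p = 0.015). The 4 of smallest p were the surface marker gene Thy1 (4.97-fold), the PDGF receptor gene Pdgfrb (5.46-fold), the cadherin gene Cdh11 (4.41-fold) and the mesenchymal transcription factor gene Prrx1 (4.73-fold). Library 2 exceeded library 1 for 13 of the 18 within the Acly-E14 siRNA group and for 17 within the control group. The part of these cells in the rises of the matrix genes was not tested, and in bulk RNA more cells of a type cannot be told apart from more RNA per cell. Beside the marker median of 1.50, 15 of the 38 matrix genes had a larger log2 fold change and 23 a smaller one, over a range of -0.17 to 5.49.

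Markers of other cell types were in part at 0 and in part well counted. Of 7 osteoblast markers, Bglap, Bglap2, Ibsp and Dmp1 had 0 counts in every library and Sp7 had 2 counts in 1 library. Alpl was higher, with 132 and 104 counts after Acly-E14 siRNA, against 24 and 34 in controls, and Runx2 was not called, with 293 and 321 counts against 220 and 253 (log2 0.30, edgeR adjusted p = 0.092). Of 5 chondrocyte markers 4 had 0 counts, while Sox9 was higher, with 293 and 329 counts after Acly-E14 siRNA, against 90 and 110 in controls (log2 1.56, edgeR adjusted p = 0.0017). Of 5 adipocyte markers 4 had 0 counts and Plin1 had 1 count. The summed CPM of 8 endothelial markers was 126 and 121 after Acly-E14 siRNA, against 306 and 293 in controls, most of it from Kdr, which was lower (log2 -1.45). Cdh5 was also lower, at 220 and 240 counts after Acly-E14 siRNA, against 316 and 279 in controls, and Vwf was not called, at 284 and 252 counts against 251 and 245. Pecam1 and Tek had at most 10 counts in a library, Tie1 had 1 count in all, and Cldn5 and Emcn had 0. Of 5 marrow stroma markers, Cxcl12 and Vcam1 were higher (log2 1.81 and 1.24) and Kitl was lower (log2 -0.91). Lepr had 2 counts in each Acly-E14 siRNA library and 0 in each control, and Ebf3 had at most 11 counts in a library. The part of these cell types in the matrix gene results was not tested.

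**Figure D4:**
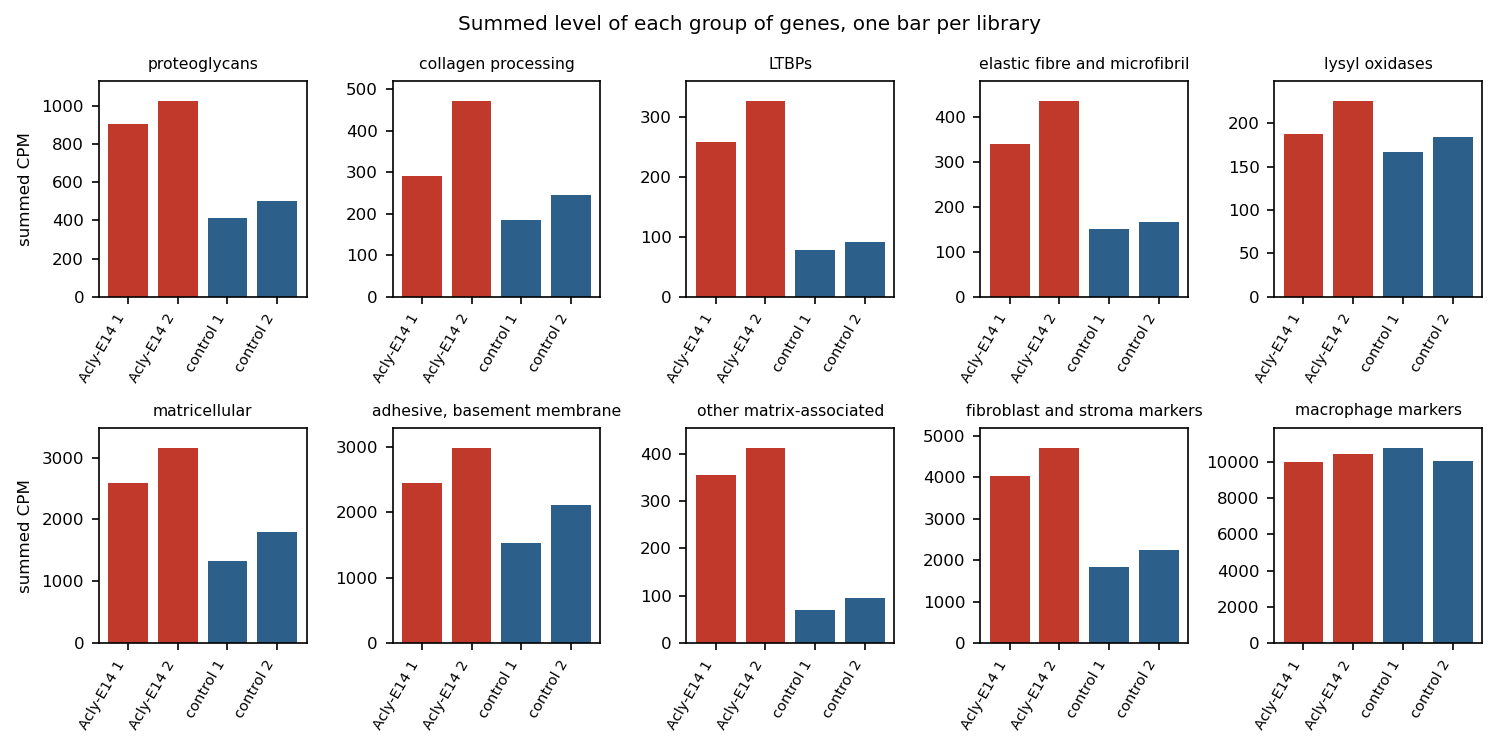
Summed CPM of each group of matrix genes and of the fibroblast and macrophage marker lists, with 1 bar per library, Acly-E14 siRNA in red and control in blue. Axes start at 0 and differ between panels. Every matrix panel and the fibroblast panel has both red bars above both blue ones, by a small margin for the lysyl oxidases, and the macrophage panel does not.

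Other genes of the matrix, outside the 39, were also mostly higher. The list named 66 symbols, of which 61 were found, and was likewise chosen with earlier results of these data known. Of 45 tested, 33 were called higher, 3 lower and 9 neither, where 17.3% of all genes tested were called higher and 15.9% lower. Another 16 were too low to test. The median log2 fold change was 1.31, and 38 of the 45 lay above 0. The 4 of smallest p were Colgalt1, a collagen galactosyltransferase gene (2.28-fold), the laminin chain genes Lama4 (4.16-fold) and Lamc1 (2.46-fold), and Ecm1 (1.67-fold). Collagen hydroxylase genes again parted. P4ha3 had the largest log2 fold change of the list, 4.59 (edgeR adjusted p = 0.0028). It had 34 and 48 counts after Acly-E14 siRNA, against 1 and 2 in controls. P4ha2 (log2 0.92) and P3h3 (log2 1.31, edgeR adjusted p = 0.016) were also higher. P4ha1 (log2 -0.07, edgeR adjusted p = 0.33) and P3h2 (log2 -0.11, edgeR adjusted p = 0.87) were not called, while Plod3 was lower (log2 -0.26, edgeR adjusted p = 0.012). The other lower genes were Spp1, the osteopontin gene, which macrophages express strongly (log2 -0.51, edgeR adjusted p = 0.035), and the agrin gene Agrn (log2 -0.22, edgeR adjusted p = 0.030). Of other small leucine-rich proteoglycan genes, Ogn was higher (log2 3.31) and Prelp was not called (log2 1.84, edgeR adjusted p = 0.061). Spp1 averaged 2801 CPM after Acly-E14 siRNA and 3994 CPM in controls, the highest of the list, whose summed CPM was 1.03-fold higher.

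**Figure D5:**
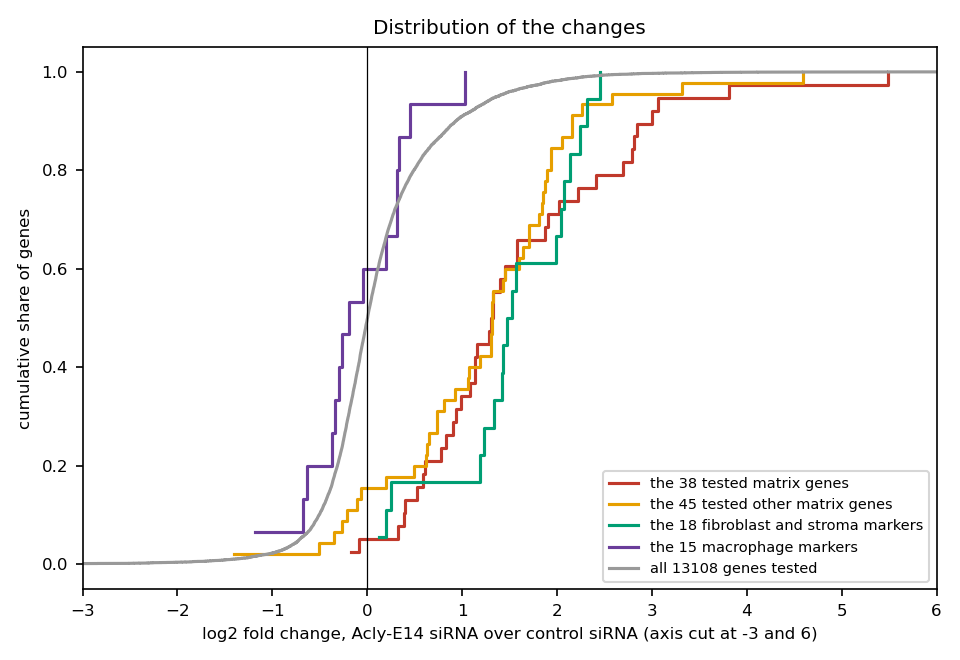
Cumulative share of genes (vertical) by log2 fold change of Acly-E14 siRNA over control siRNA (horizontal). Lines are the 38 tested matrix genes, the 45 tested other matrix genes, the 18 fibroblast and stroma markers, the 15 macrophage markers and all 13108 genes tested. The first 3 lines lie right of 0 for most of their length, with medians of 1.31, 1.31 and 1.50, and the macrophage markers have a median of -0.19.

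The genes lie on 20 chromosomes, and Dcn with Lum and Efemp2 with Ltbp3 (258.4 kb apart on chromosome 19) are the closest pairs. Exon bases are shared with another annotated gene by 15 of the 39, and whether counting used the strand is not given in the sources used here. Fbn1 shares 2442 bases with Gm9913, which had at most 9 counts in a library. Ltbp2 shares 764 with the antisense gene D030025P21Rik, at 3.06 CPM after Acly-E14 siRNA and 1.32 CPM in controls, far below Ltbp2. Loxl3 shares 535 bases with Htra2 on the other strand, at 42.8 CPM after Acly-E14 siRNA and 33.3 CPM in controls, which is above Loxl3 itself. The Loxl3 level is therefore less certain than those of its relatives.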

How the data were processed

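RNA was measured in 4 libraries, 2 per siRNA group, and groups were taken from the labels. The submitters' processing notes name HISAT2, StringTie 1.3.0, edgeR and the build mm10 without roles. What counted the reads, with which annotation and whether by strand, is not given in the sources used here. Both a stranded total RNA kit and mRNA capture beads appear in the labels' protocols. The deposited table holds raw whole-number counts per gene and, per the file headers, FPKM values made by the authors. An FPKM column whose name lacks a library number (1 column) was left out. The deposited FPKM served only to derive a length per gene.

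Counts were tested with edgeR 4.0.16 (R 4.3.3) by the quasi-likelihood F test, with filterByExpr (minimum count 10), TMM scaling, no covariate and Benjamini-Hochberg adjustment over all 13108 genes tested. SE are those implied by the F statistic. Ensembl IDs were paired with symbols (34267 matched). Coordinates and exon overlaps are from GENCODE M21 (mm10), promoter sequences from RefSeq (GRCm38.p6). The alternatives were a replicate block, leaving out each library, RLE factors, library totals, DESeq2 1.42.0, no filter, and limma 3.58.1 on log2(FPKM + 1) recomputed from counts. Of the 39, genes with at least 10 CPM in a group mean or a call are given in full, and the other matrix, fibroblast and macrophage lists by counts and the 4 genes of smallest p with at least 1 CPM in both groups. The 39 genes and all lists were chosen with earlier results of these data known. Single markers of the other cell types, Lyz2, Pdpn, Fap, Cnn1, Loxl4, P4ha1, P4ha2, P4ha3, P3h2, P3h3, Plod3, Spp1, Agrn, Ogn and Prelp were named after their values were seen. With 2 libraries against 2, an exact permutation test cannot give a two-sided p below 0.333. Whether the libraries are of separate cultures or mice is not said in the labels, so p-values reflect only the spread between these libraries, possibly technical.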

Additional observations from a re-analysis of the deposited data

How the results depend on the processing

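Every alternative left 36 of the 38 matrix genes above 0 on the log2 scale and Lox and Plod1 below it, and 0 were called lower. The number called higher was 30 with RLE size factors, DESeq2 and limma on log2(FPKM + 1), 31 with library totals and 27 without a filter on low counts, and lay between 22 and 31 when 1 library was left out. Of the 30 called genes, 20 were called under all 10 alternatives. The median log2 fold change lay between 1.05 and 1.58 when 1 library was left out, and was 0.88 with limma on log2(FPKM + 1), where the pseudocount shrinks the change of low genes. All genes called numbered 4354, and between 2088 and 3215 when 1 library was left out. Library totals alone shifted the median of all genes to 0.09 and the share of higher calls to 65.8%, against 52.0% with TMM factors, and that share was also 65.8% with limma on log2(FPKM + 1).

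With a replicate block, 34 matrix genes and 4896 genes in all were called, and Lum, Serpinh1, Tnc and Fn1 were added. The labels do not say whether libraries of the same number share a culture or mouse. The differences of library 1 minus library 2 correlated at 0.14 between the groups, across 13108 genes that are not independent. Among the matrix genes, library 2 exceeded library 1 in 35 of 38 (Acly-E14 siRNA group) and in 33 of 37 (control group). Depth limits Mfap2, Mfap4, Mfap5, Ltbp4, Eln and the controls of Fmod.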
